A study of Homo sapiens with 30 samples.

Results

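The S and G2/M phase cell cycle genes were a set of 45 protein-coding genes, chosen by name from the known machinery of DNA replication and mitosis, out of 58278 genes counted in HEK293, a long-established cell line from human embryonic kidney. The set held 21 genes of G1/S entry and S phase (the S members) and 24 genes of G2 and mitosis (the G2/M members), and the rule that chose them uses gene names, not measured values, although earlier results of these data were known when it was written. All 45 were matched by symbol and all 45 passed the filter on low counts. The libraries were polyA mRNA-seq of 10 groups of 3 independent replicates. In 5 groups the cells received a reporter alone, a fusion of EGFP carrying 1 of 5 labelled mutations to mCherry. In the other 5 groups the same reporter came with its cognate mischarged tRNA (mc-tRNA), a tRNA carrying an amino acid that its anticodon does not encode: Ser-tRNA_Arg(CCG) with EGFP(R65), Arg-tRNA_Gln(CUG) with EGFP(R96Q), Arg-tRNA_Cys(GCA) with EGFP(R96C), Arg-tRNA_His(GUG) with EGFP(R96H) and Arg-tRNA_Trp(CCA) with EGFP(R96W). All 10 groups were transfected wild-type HEK293 cells, and mCherry-positive cells were sorted 48 hours after transfection, so every library came from cells that carried a reporter. Each comparison below set a reporter with its mc-tRNA against the same reporter alone, and no 2 comparisons shared a library.

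As background, a dividing cell licenses its replication origins by loading the MCM2-7 helicase with the help of CDC6 and CDT1, and E2F transcription factors with cyclin E then drive entry into S phase. Genes for nucleotide supply and the replication fork are transcribed mainly around the G1/S boundary. Cyclins A and B, CDK1, the phosphatases CDC25B and CDC25C and the Polo-like and Aurora kinases act later, mainly in G2 and mitosis. Their genes are largely controlled through cell cycle homology region (CHR) elements bound by the DREAM and MuvB complexes with B-MYB and FOXM1. HEK293 cells carry adenovirus E1A, which binds the retinoblastoma protein and releases E2F.

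The promoters of 4 members whose values are described below are shown first, to put S and G2/M promoters side by side. They are the reference sequence of GRCh38.p14 from RefSeq, 5′ to 3′ on the plus strand, from 250 bases before to 25 bases after an annotated start. Capitals mark exact matches on either strand to an E2F motif (TTTCCCGC or TTTGGCGC), a CHR (TTTGAA or TTCGAA) or a CCAAT box (CCAAT).
CDC6, chr17:40287629-40287903: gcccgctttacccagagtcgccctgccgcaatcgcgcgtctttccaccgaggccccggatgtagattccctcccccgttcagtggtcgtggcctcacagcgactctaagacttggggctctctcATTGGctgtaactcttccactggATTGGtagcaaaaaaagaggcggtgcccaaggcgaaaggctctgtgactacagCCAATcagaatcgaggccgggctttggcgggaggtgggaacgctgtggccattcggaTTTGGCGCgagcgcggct
RRM2, chr2:10122489-10122763: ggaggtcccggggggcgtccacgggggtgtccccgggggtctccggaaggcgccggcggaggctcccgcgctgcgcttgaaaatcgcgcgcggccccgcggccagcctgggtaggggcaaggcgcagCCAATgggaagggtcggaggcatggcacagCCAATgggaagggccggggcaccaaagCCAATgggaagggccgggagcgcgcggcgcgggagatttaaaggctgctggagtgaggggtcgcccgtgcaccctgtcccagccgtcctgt
CDC20, chr1:43358731-43359005: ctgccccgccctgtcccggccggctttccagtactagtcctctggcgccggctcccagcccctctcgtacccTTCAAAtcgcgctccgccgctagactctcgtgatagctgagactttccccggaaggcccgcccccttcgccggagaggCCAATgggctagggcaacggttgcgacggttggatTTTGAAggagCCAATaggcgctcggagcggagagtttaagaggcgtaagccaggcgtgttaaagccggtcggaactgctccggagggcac
KIF20A, chr5:138178862-138179136: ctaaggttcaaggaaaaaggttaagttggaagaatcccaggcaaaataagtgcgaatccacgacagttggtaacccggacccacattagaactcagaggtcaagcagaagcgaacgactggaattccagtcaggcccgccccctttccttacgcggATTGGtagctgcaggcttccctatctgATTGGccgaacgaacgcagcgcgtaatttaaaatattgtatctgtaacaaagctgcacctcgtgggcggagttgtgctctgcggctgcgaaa
The CDC6 window had an E2F match just after the start and 3 CCAAT matches, and the RRM2 window had 3 CCAAT matches and no match to the other motifs. The CDC20 window had 2 CHR and 2 CCAAT matches, and the KIF20A window had 2 CCAAT matches. RefSeq windows of 300 bases, 250 before and 50 after a start, were found for 37 members, 53 windows in all, and some windows of 1 gene overlap. An E2F match was in 11 of 26 S windows (42.3%) and 1 of 27 G2/M windows, against 2.27% of 35116 promoters. A CHR match was in 2 of 26 S windows and 16 of 27 G2/M windows (59.3%), against 16.4% of all promoters. CCAAT was in 19 of 26 S and 21 of 27 G2/M windows, against 34.6% of all. The motifs and the 4 promoters were chosen after the expression values were seen, and a match describes only the letters in a window.

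The libraries held 39017548 to 55446962 counts assigned to genes. The HEK293 marker list was detected in all 30 libraries (7 of 7 genes, 589 to 933 CPM summed, CPM being counts scaled to the size of the library, here to library totals). Its direction with Arg-tRNA_Cys(GCA) turned with the scaling, at 589 to 648 CPM against 804 to 820 CPM with EGFP(R96C) alone by library totals and 811 to 888 against 760 to 784 CPM after TMM scaling, which normalises to the bulk of genes. Among markers of other cell types, PTPRC, CD3E, HBB, TTR, KRT5 and KRT14 were at or near 0. The blood list (6 genes) summed to 10.5 to 13.9 CPM with Ser-tRNA_Arg(CCG) against 3.25 to 4.25 CPM with its reporter alone, most of it from CD14 (9.95 to 12.8 against 2.20 to 3.02 CPM). The hepatocyte and keratinocyte list (5 genes) summed to 8.98 to 10.7 against 0.702 to 0.974 CPM there, most of it from ALB (8.66 to 10.2 against 0.421 to 0.692 CPM). The stromal list (5 genes) summed to 38.7 to 40.1 CPM with Arg-tRNA_Cys(GCA) against 20.9 to 23.4 CPM, most of it from COL1A1 (33.3 to 34.9 against 17.9 to 20.0 CPM). The part of these shifts in the results was not tested. The 6 libraries with EGFP(R65) had 0 counts from ERCC spike-in RNA and the 24 with an R96 reporter had 10 to 106. Reporter and any preparation batch that this marks therefore cannot be told apart between those sets. Every mc-tRNA comparison lies within 1 set, but in every R96 comparison ERCC counts were lower with the mc-tRNA, without overlap. They were 27 to 50 with Arg-tRNA_Gln(CUG) against 78 to 106 alone, and 20 to 40 with Arg-tRNA_Cys(GCA) against 52 to 82. With Arg-tRNA_His(GUG) they were 10 to 17 against 20 to 22, and with Arg-tRNA_Trp(CCA) 25 to 32 against 34 to 61. What these lower counts mark was not tested.

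Changes were estimated with edgeR's quasi-likelihood test over 22321 genes in 1 fit to all 30 libraries, with TMM scaling. A gene was called when its p, adjusted by Benjamini-Hochberg over all 22321 genes, was under 0.05, and each change is a log2 ratio of mc-tRNA to reporter alone with its standard error. Many of the 45 genes changed with 3 of the mc-tRNAs. With Ser-tRNA_Arg(CCG) 21 members rose and 8 fell, where 57.3% of all genes tested were called (26.6% rose and 30.7% fell). With Arg-tRNA_Cys(GCA) 17 rose and 17 fell, against 60.7% of all genes (30.2% and 30.5%), and with Arg-tRNA_Trp(CCA) 23 rose and 5 fell, against 42.5% (20.7% and 21.7%). With Arg-tRNA_His(GUG) 4 rose and 0 fell, against 2.51% (1.56% and 0.95%), and with Arg-tRNA_Gln(CUG) 1 rose and 0 fell, against 0.551% (0.273% and 0.278%). At an unadjusted edgeR p under 0.05, 17 members were higher and 1 lower with Arg-tRNA_His(GUG), and 3 were higher and 3 lower with Arg-tRNA_Gln(CUG), while DESeq2 called 5 and 0, and 1 and 0.

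The medians of the 2 phases are described without a test, since members are not replicates. The phase with the higher median was not the same for every mc-tRNA. With Ser-tRNA_Arg(CCG) the median change was 0.05 for S members and 0.22 for G2/M members. With Arg-tRNA_Cys(GCA) it was 0.20 for S and -0.26 for G2/M, and with Arg-tRNA_Trp(CCA) 0.31 and 0.13. It was 0.02 and 0.15 with Arg-tRNA_His(GUG), and 0.02 and -0.05 with Arg-tRNA_Gln(CUG), while the median over all genes lay between -0.04 and 0.00 in the 5 comparisons. The S minus G2/M difference of these medians was -0.17, 0.08, 0.46, -0.13 and 0.19 for the mc-tRNAs of EGFP(R65), R96Q, R96C, R96H and R96W, respectively. The S medians of 3 comparisons lay near 0 and moved with single libraries: leaving out 1 library gave -0.00045 (without EGFP(R65) replicate 3) to 0.11 with Ser-tRNA_Arg(CCG), -0.0097 (without EGFP(R96Q) replicate 3; -0.0010 without mc-tRNA replicate 1) to 0.069 with Arg-tRNA_Gln(CUG), and 0.0078 (without EGFP(R96H) replicate 1) to 0.028 with Arg-tRNA_His(GUG). Because each library pools many cells, a changed share of cells in a phase and a changed RNA level per cell cannot be told apart in any of these values.

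**Figure D1:**
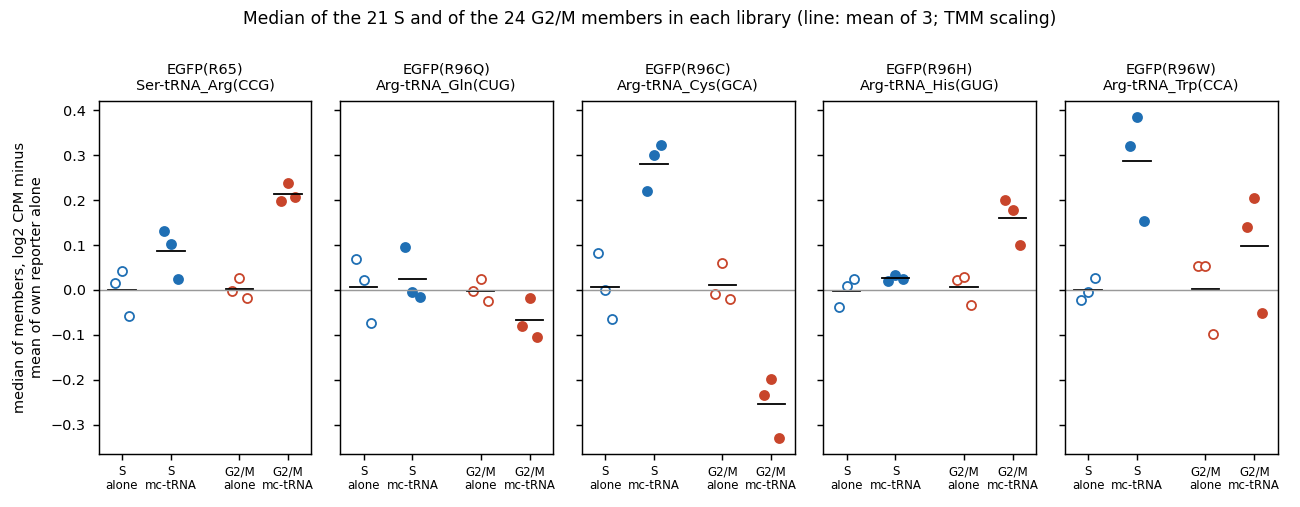
Each point is the median, in 1 library, over the 21 S members (blue) or the 24 G2/M members (red) of log2 CPM minus the mean of the same reporter alone, with TMM scaling; open points are reporter alone, filled points reporter with mc-tRNA, and lines are means of 3 libraries. With Arg-tRNA_Cys(GCA) the 3 S medians lie at 0.22 to 0.32 and the G2/M medians at -0.33 to -0.20, whereas with library totals the median changes of both phases lie below 0 (-0.34 and -0.80).

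How the Arg-tRNA_Cys(GCA) libraries are scaled sets the direction of many of their changes. Their TMM factors were 0.714 to 0.730, against 1.04 to 1.08 with EGFP(R96C) alone, and their 10 most abundant genes took 10.1 to 10.4% of counts against 5.86 to 6.67%. Scaling by library totals moved all genes by -0.55 in that comparison, by -0.13 with Arg-tRNA_Trp(CCA), and by -0.02 to -0.04 in the others. With library totals, 2 S members rose and 12 fell with Arg-tRNA_Cys(GCA), 1 G2/M member rose and 20 fell, and 14.1% of all genes rose and 55.6% fell. With Arg-tRNA_Trp(CCA) 12 S members rose and 3 fell and 5 G2/M members rose and 7 fell under library totals, where 14.3% of all genes rose and 31.3% fell. The share of all calls that were rises then was 20.2% with Arg-tRNA_Cys(GCA) (49.8% with TMM), 31.4% with Arg-tRNA_Trp(CCA) (48.8%), 38.3% with Arg-tRNA_Gln(CUG) (49.6%) and 48.4% with Arg-tRNA_His(GUG) (62.1%). The S minus G2/M differences were the same to 2 decimals under TMM, DESeq2's size factors and library totals, since a scaling moves both medians together.

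**Figure D2:**
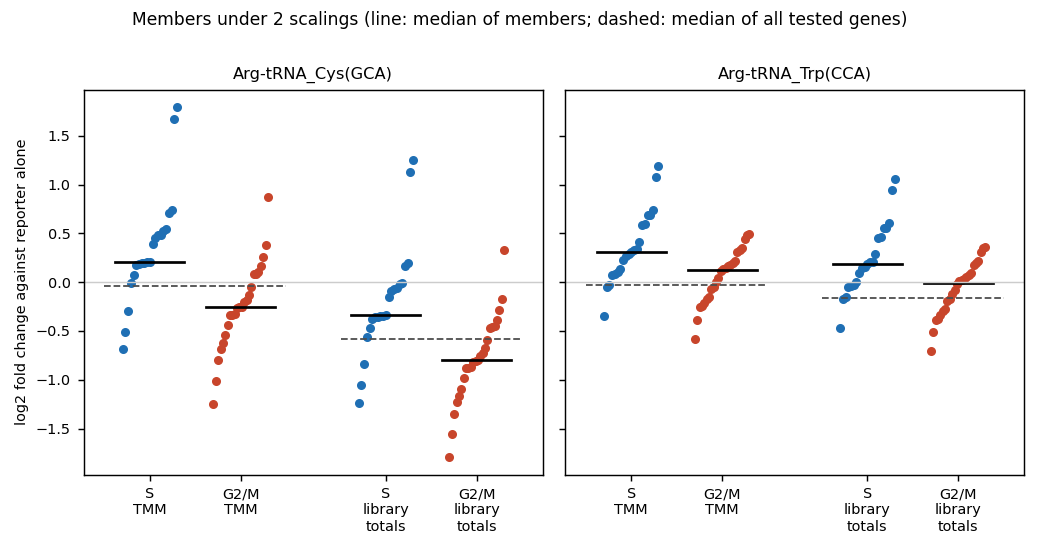
Log2 change of each S member (blue points) and each G2/M member (red points) with TMM scaling and with library totals, for Arg-tRNA_Cys(GCA) and Arg-tRNA_Trp(CCA); solid lines are medians of the members and dashed lines the median of all tested genes. With Arg-tRNA_Cys(GCA) the S median is 0.20 with TMM and -0.34 with library totals, and the G2/M median moves from -0.26 to -0.80, so the gap between phases stays at 0.46.

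**Figure D3:**
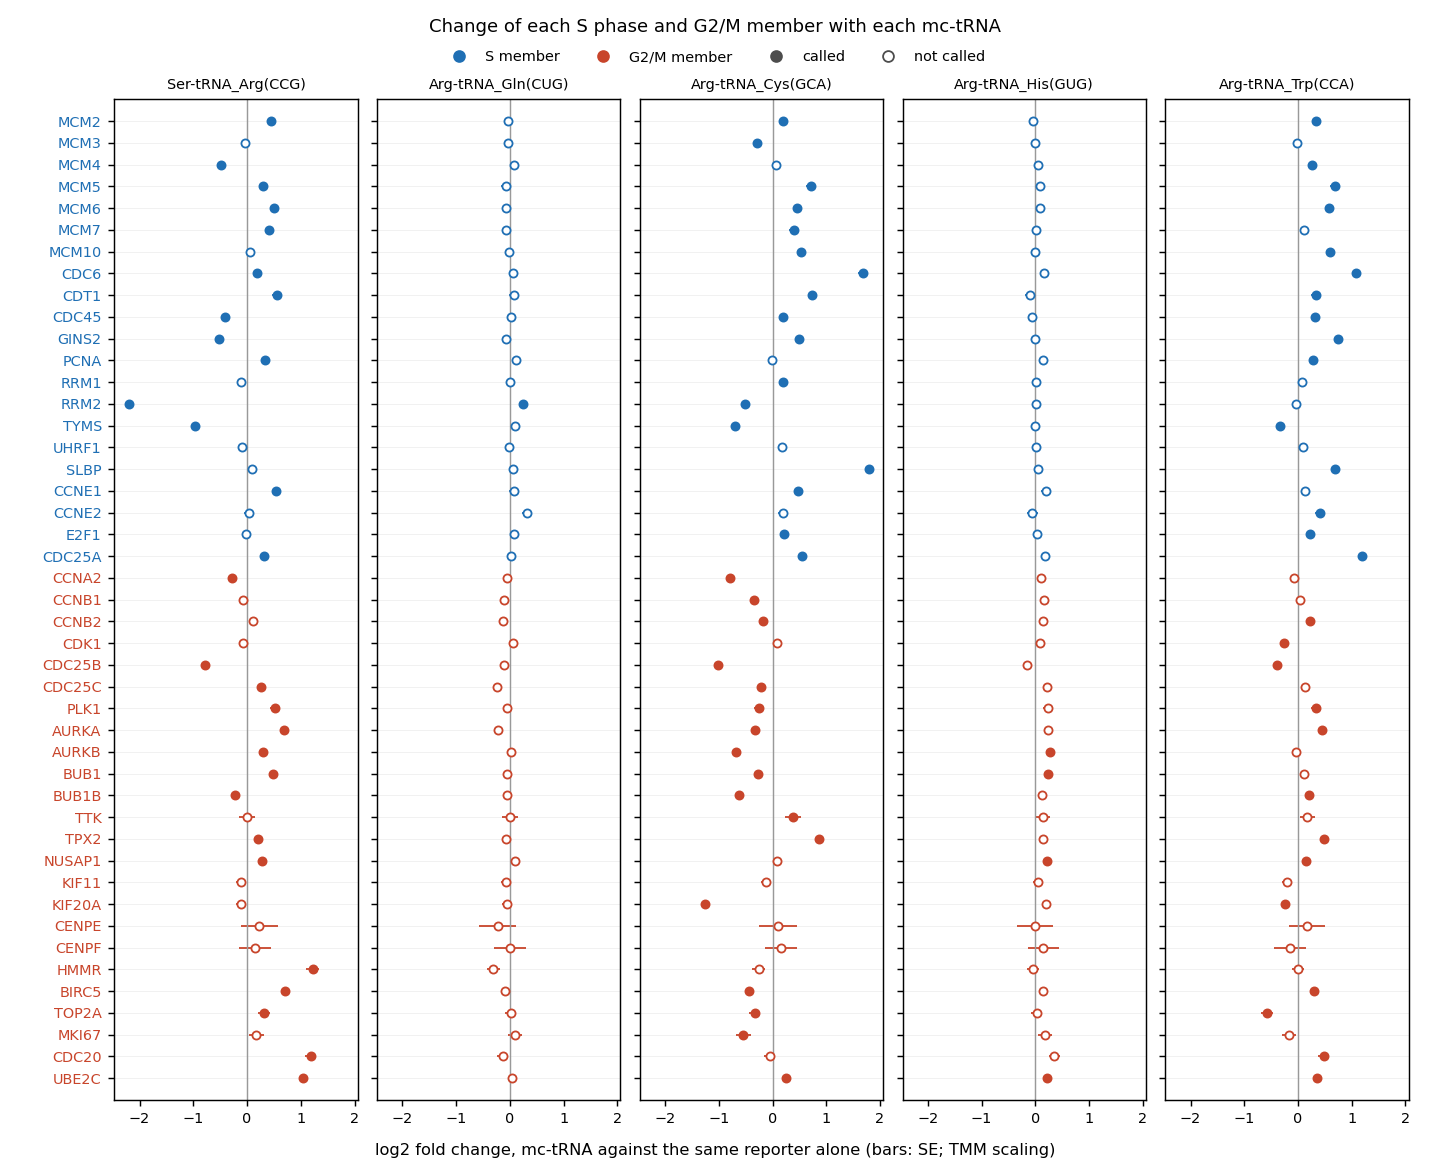
Log2 change of each of the 45 members (rows; S members blue, G2/M members red) in each of the 5 comparisons (panels) with TMM scaling; filled points are called, open points are not, and bars are standard errors. RRM2 with Ser-tRNA_Arg(CCG) stands lowest at -2.20, SLBP with Arg-tRNA_Cys(GCA) highest at 1.79 (1.25 by library totals), and the Arg-tRNA_Gln(CUG) panel has 1 called change.

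With Ser-tRNA_Arg(CCG), RRM2 and TYMS fell furthest of the 45 members. RRM2, the small subunit of ribonucleotide reductase, was at 169.6, 169.2 and 153.8 CPM in the 3 libraries with EGFP(R65) alone and at 35.7, 35.6 and 35.7 CPM with the mc-tRNA. Every treated library lay far below every control, a fall of 2.20 ± 0.06 (4.60-fold; edgeR adjusted p = 3e-25). TYMS, thymidylate synthase, stood at 100.6, 102.4 and 91.5 CPM alone and 50.6, 53.0 and 47.6 CPM with the mc-tRNA, a fall of 0.96 ± 0.06 (edgeR adjusted p = 3.11e-15). RRM1, the large subunit of ribonucleotide reductase, stood at -0.12 ± 0.06 and was not called (edgeR adjusted p = 0.0664; called at -0.16 with library totals). PCNA, the sliding clamp of the replication fork, rose by 0.33 ± 0.06. Of the 6 genes for nucleotide supply, the clamp and chromatin, 1 rose and 2 fell, where 26.6% of all genes rose and 30.7% fell. The RRM2 gene shares 1077 exon bases with the same-strand gene AC007240.1 and TYMS shares 967 with ENOSF1 on the opposite strand, so the split of reads there is uncertain, the strand setting of the counting being not given in the sources used here. MCM2, MCM7, GINS2, RRM1, CCNE2, CCNA2, CDC25C, PLK1, HMMR and KIF20A also overlap genes on the opposite strand. NUSAP1 and BUB1B overlap genes on the same strand, and the uncertainty applies to all of these to differing degrees. Among them, GINS2 shares 7 exon bases with GSE1, whereas CCNE2 shares 1629 with INTS8 (mean 87.1 CPM against 27.2 CPM for CCNE2).

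The origin licensing and helicase genes split with Ser-tRNA_Arg(CCG), 6 of 11 rising and 3 falling, where 26.6% of all genes rose and 30.7% fell. CDT1, which loads the MCM helicase, went from 232.3, 247.8 and 239.0 to 356.9, 351.0 and 354.1 CPM, a rise of 0.56 ± 0.09 (edgeR adjusted p = 3.82e-06). MCM6, a helicase subunit, went from 319.6, 313.7 and 296.9 to 452.2, 454.8 and 411.6 CPM and rose by 0.50 ± 0.07. The groups did not overlap for either gene. GINS2, part of the GINS complex that completes the active helicase, fell by 0.53 ± 0.08, from 79.4, 79.8 and 82.5 to 54.2, 55.8 and 57.4 CPM. The helicase subunits MCM2, MCM5 and MCM7 rose by 0.44, 0.30 and 0.40, whereas MCM4, a subunit of the same hexamer, fell by 0.49 ± 0.05 and the helicase cofactor CDC45 by 0.41 ± 0.06. Of the 4 G1/S regulators 2 rose: CCNE1, cyclin E1, by 0.54 ± 0.08 (from 44.4, 43.9 and 44.0 to 65.7, 64.6 and 62.6 CPM) and CDC25A, the phosphatase that activates CDK2, by 0.31.

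Of the 24 G2/M members 12 rose and 3 fell with Ser-tRNA_Arg(CCG), against 26.6% and 30.7% of all genes. HMMR, CDC20 and UBE2C rose most. HMMR, a spindle and hyaluronan-binding protein, went from 60.7, 64.9 and 56.8 to 136.99, 145.9 and 141.7 CPM, a rise of 1.22 ± 0.12 (edgeR adjusted p = 1.4e-09). CDC20, the activator of the anaphase-promoting complex, went from 86.8, 89.7 and 78.5 to 189.4, 192.0 and 196.3 CPM (rise of 1.18 ± 0.11, edgeR adjusted p = 2.65e-10). UBE2C, the ubiquitin-conjugating enzyme of that complex, went from 50.7, 50.5 and 50.9 to 109.6, 103.9 and 100.1 CPM (rise of 1.04 ± 0.06). In all 3 genes every treated library was above every control, which follows in part from picking the largest called rises. The share of all genes without overlap was counted with Arg-tRNA_His(GUG) only. In the other comparisons non-overlap of named genes therefore describes the libraries and adds no support. BIRC5 (survivin) rose by 0.71 ± 0.06, and the kinases AURKA, PLK1, BUB1 and AURKB rose by 0.68, 0.51, 0.48 and 0.29. The 3 falls were CDC25B, a phosphatase that activates cyclin B-CDK1, by 0.79 ± 0.07 (from 46.1, 49.1 and 49.6 to 27.6, 25.9 and 30.3 CPM), cyclin A2 (CCNA2) by 0.28 ± 0.05 and the checkpoint kinase BUB1B by 0.22 ± 0.07. The G2/M median of 0.22 was 0.18 with library totals and 0.25 with DESeq2's size factors.

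With Arg-tRNA_Cys(GCA), 9 of 11 licensing and helicase genes and 3 of 4 G1/S regulators rose with TMM scaling, and 14 of 24 G2/M members fell. Of all genes, 30.2% rose and 30.5% fell with TMM, and 14.1% and 55.6% with library totals. SLBP, which binds the stem-loop of replication-dependent histone mRNAs, was at 72.6, 70.3 and 72.5 CPM with EGFP(R96C) alone and at 245.6, 252.1 and 249.0 CPM with the mc-tRNA. That rise of 1.79 ± 0.06 (3.47-fold, edgeR adjusted p = 9.39e-25) was 1.25 with library totals and was still called. CDC6 went from 144.5, 136.9 and 123.7 to 428.3, 443.4 and 421.2 CPM, a rise of 1.67 ± 0.08 (edgeR adjusted p = 4.69e-20; 1.13 and called with library totals). These 2 S members and TPX2 were the members called higher under both scalings. CDT1 rose by 0.74 ± 0.09 and MCM5 by 0.71 ± 0.08 with TMM, and with library totals they stood at 0.20 (adjusted p = 0.0649) and 0.16 (adjusted p = 0.0566), not called. MCM6 and MCM7 rose by 0.45 and 0.39 with TMM and stood at -0.09 and -0.15 with library totals, the latter called lower. CCNE1 rose by 0.48 with TMM and stood at -0.07 with library totals.

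With TMM scaling 3 S members fell with Arg-tRNA_Cys(GCA), TYMS, RRM2 and the helicase subunit MCM3, where 12 fell with library totals. TYMS went from 138.9, 130.7 and 119.8 to 78.2, 79.8 and 83.3 CPM, a fall of 0.69 ± 0.06 (edgeR adjusted p = 4.41e-12). RRM2 went from 128.3, 129.2 and 120.5 to 82.1, 89.3 and 93.5 CPM, a fall of 0.51 ± 0.06, and MCM3 fell by 0.30 ± 0.06. RRM1 rose by 0.20 ± 0.06 with TMM, fell by 0.35 with library totals, and was not called without the filter on low counts (0.11, adjusted p = 0.248). No treated library reached a control for TYMS or RRM2.

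Of the 6 mitotic entry genes 5 fell and 0 rose by edgeR, with the same counts at an unadjusted p under 0.05 and by DESeq2. In this comparison 30.5% of all genes fell with TMM, and 55.6% with library totals. CCNA2 went from 162.1, 167.6 and 173.7 to 96.2, 98.8 and 94.2 CPM (fall of 0.80 ± 0.05, edgeR adjusted p = 2.61e-15), CDC25B fell by 1.01 ± 0.07, and CCNB1 (cyclin B1) by 0.34 ± 0.07. KIF20A, a kinesin of the central spindle needed for cytokinesis, was at 131.2, 140.6 and 120.0 CPM alone and 58.2, 53.1 and 53.5 CPM with the mc-tRNA. Its fall of 1.25 ± 0.08 (2.38-fold, edgeR adjusted p = 1.11e-15) was the largest of any G2/M member in the 5 comparisons with TMM, and it was 1.79 on the log2 scale with library totals. Of 6 kinases and checkpoint genes 5 fell, AURKB by 0.69, BUB1B by 0.62, AURKA by 0.33, BUB1 by 0.27 and PLK1 by 0.25. MKI67, the Ki-67 proliferation antigen, fell by 0.54 ± 0.14 (edgeR adjusted p = 0.00131; 0.0687 when only the 6 libraries compared were fitted).

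The 3 G2/M members that rose with TMM went against that direction. TPX2, which targets Aurora A to the spindle, went from 312.3, 328.2 and 275.0 to 549.9, 579.8 and 547.0 CPM (rise of 0.87 ± 0.07, edgeR adjusted p = 1.59e-13; 0.33 and called with library totals). UBE2C rose by 0.26 ± 0.06 with TMM but fell by 0.29 with library totals. The checkpoint kinase TTK rose by 0.38 ± 0.14 (edgeR adjusted p = 0.0271) with TMM and stood at -0.17 with library totals, and its call was lost without EGFP(R96C) replicate 1 (0.33) or 2 (0.25) and without mc-tRNA replicate 1 (0.27) or 2 (0.21).

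With Arg-tRNA_Trp(CCA), 14 of 21 S members rose and 1 fell, 12 and 3 with library totals. The shares of all genes were 20.7% and 21.7% with TMM, and 14.3% and 31.3% with library totals. CDC25A was at 201.2, 199.6 and 195.6 CPM with EGFP(R96W) alone and at 490.8, 497.0 and 377.1 CPM with the mc-tRNA, a rise of 1.19 ± 0.07 (edgeR adjusted p = 3.42e-15; 1.06 with library totals). CDC6 went from 145.5, 146.1 and 135.4 to 337.4, 323.8 and 242.9 CPM (rise of 1.08 ± 0.08, edgeR adjusted p = 6.51e-14), and GINS2 from 62.0, 59.2 and 62.5 to 107.8, 112.6 and 86.2 CPM (rise of 0.74 ± 0.08). In all 3 genes mc-tRNA replicate 3 was the lowest treated library and still above every control. Of the 11 licensing and helicase genes 9 rose and 0 fell (the same counts at an unadjusted edgeR p under 0.05 and by DESeq2), among them MCM5 (0.68), MCM10 (0.60) and MCM6 (0.59). SLBP rose by 0.69 ± 0.06, from 69.1, 71.8 and 68.9 to 115.5, 119.6 and 102.3 CPM. CCNE2 (cyclin E2), with the overlap with INTS8 given above, rose by 0.41 ± 0.09. E2F1, a transcription factor that activates these genes, rose by 0.23 ± 0.07 (edgeR adjusted p = 0.00632) with TMM, and was not called with library totals (0.10, adjusted p = 0.232) or without mc-tRNA replicate 1 (0.18, adjusted p = 0.0595). TYMS was the S member that fell, by 0.34 ± 0.06, from 114.0, 119.5 and 121.7 to 90.2, 100.5 and 89.2 CPM.

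The G2/M members moved both ways with Arg-tRNA_Trp(CCA), 9 rising and 4 falling with TMM and 5 and 7 with library totals. Of all genes, 20.7% rose and 21.7% fell with TMM, and 14.3% and 31.3% with library totals. The largest rises were TPX2 (0.49 ± 0.07), CDC20 (0.48 ± 0.10) and AURKA (0.44 ± 0.07). CDC20 went from 225.0, 206.3 and 212.9 to 316.9, 337.1 and 244.4 CPM. TOP2A, the topoisomerase that untangles chromosomes before anaphase, fell furthest, by 0.58 ± 0.11, from 856.9, 877.1 and 769.7 to 532.0, 554.0 and 588.3 CPM (edgeR adjusted p = 9.06e-05). CDC25B fell by 0.38 ± 0.07 and CDK1, the kinase of mitotic entry, by 0.26 ± 0.06. The G2/M median of 0.13 was 0.02 without EGFP(R96W) replicate 3 and -0.01 with library totals. CDC25B and TYMS were the members that fell with all 3 of these mc-tRNAs.

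**Figure D4:**
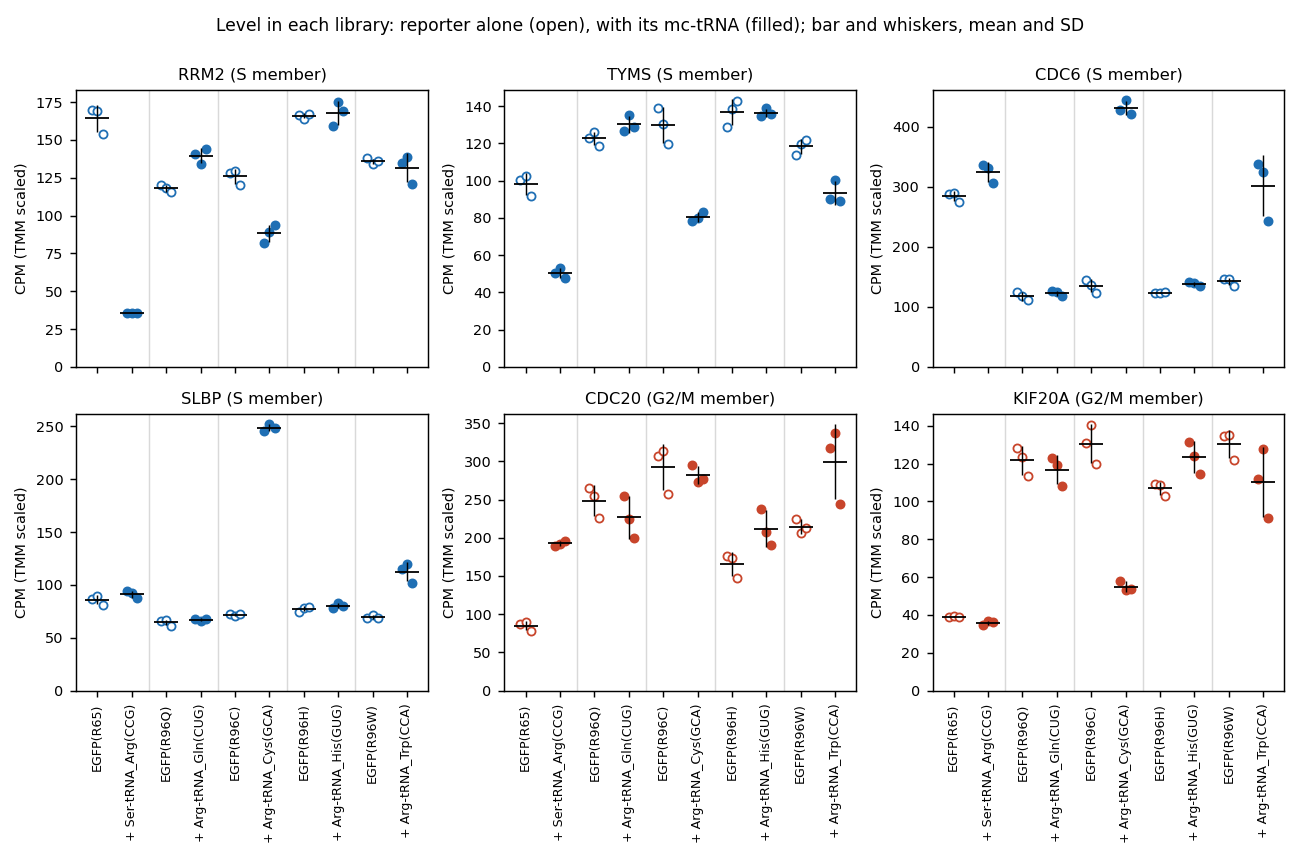
TMM-scaled CPM of RRM2, TYMS, CDC6, SLBP, CDC20 and KIF20A in each of the 30 libraries; each point is 1 library (open, reporter alone; filled, with mc-tRNA), and bars with whiskers are the mean and SD of 3 libraries. RRM2 lies at 35.6 to 35.7 CPM in the 3 libraries with Ser-tRNA_Arg(CCG) and above 80 CPM in all others, and the SLBP values with Arg-tRNA_Cys(GCA), 246 to 252 CPM, stand above every other group.

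With Arg-tRNA_His(GUG), 4 G2/M members rose by edgeR and 0 S members were called (4 S members were higher at an unadjusted p under 0.05, and DESeq2 called 0). AURKB went from 134.3, 134.99 and 127.0 to 176.2, 150.8 and 150.4 CPM (0.27 ± 0.07, edgeR adjusted p = 0.0428) and BUB1 from 182.5, 182.7 and 171.8 to 218.4, 214.1 and 200.3 CPM (0.24 ± 0.06, edgeR adjusted p = 0.0381). NUSAP1, a spindle-associated protein, went from 199.1, 210.9 and 219.9 to 240.7, 250.3 and 243.1 CPM (0.22 ± 0.06, edgeR adjusted p = 0.0248), and UBE2C rose by 0.21 ± 0.06 (edgeR adjusted p = 0.0455; 0.19 and not called with library totals). All 4 are genes of chromosome segregation, a theme set by the choice of the G2/M members from the machinery of mitosis. In 17 of 24 G2/M members all 3 treated libraries were above all 3 controls, and in 1 all were below, where 14.1% and 13% of all genes did so. The 4 calls lay near the threshold. By edgeR 0 members were called without EGFP(R96H) replicate 1, 2 or 3 or without mc-tRNA replicate 1 or 2. The count was 17 when only the 6 libraries of the comparison were fitted, and 1 when the EGFP(R65) libraries were left out of the fit.

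With Arg-tRNA_Gln(CUG), RRM2 was the member called. It went from 120.1, 118.4 and 115.4 to 140.7, 134.3 and 144.1 CPM, a rise of 0.24 ± 0.06 (edgeR adjusted p = 0.0305), with no overlap between groups. The call was lost without EGFP(R96Q) replicate 1, 2 or 3 or mc-tRNA replicate 1 or 3 (change of 0.22 to 0.26, adjusted p = 0.0905 to 0.203).

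The changes were also compared with one another. An F-test of whether the 5 changes of a gene were equal was called for 38 of 45 members (19 of 21 S and 19 of 24 G2/M), against 72.5% of all genes. Between Ser-tRNA_Arg(CCG) and Arg-tRNA_Cys(GCA), 3 S members had a higher and 12 a lower change with the former under TMM, and 17 G2/M members a higher and 1 a lower, against 56.5% of all genes called (25.3% higher and 31.3% lower). With library totals the G2/M counts were 20 and 0, but the S counts turned, to 12 higher and 4 lower. The counts over all genes turned the same way with library totals, to 10133 higher and 3587 lower (61.5% of all genes called). The turn of the S counts was therefore shared with the bulk of genes. BIRC5, AURKA and AURKB were called in opposite directions in these 2 comparisons, with TMM differences between changes of 1.15 ± 0.08, 1.01 ± 0.11 and 0.98 ± 0.11. Arg-tRNA_Cys(GCA) and Arg-tRNA_Trp(CCA) each had 14 S members that rose with TMM, and 11 of these were shared (78.6% of each list). Over all genes 2977 rose in both, 44.1% of the rises with Arg-tRNA_Cys(GCA) and 64.3% of those with Arg-tRNA_Trp(CCA), and with 14 of 21 S members in each list at least 7 must be shared. With library totals 2 and 12 S members rose. Some changes differed in size: the change was larger with Arg-tRNA_Cys(GCA) for SLBP by 1.11 ± 0.08 and for CDC6 by 0.59 ± 0.11 with TMM, and larger with Arg-tRNA_Trp(CCA) for CDC25A, where the Cys minus Trp difference was -0.65 ± 0.10 (all 3 called, as were 43.7% of all genes). With library totals the SLBP difference was 0.69 and that of CDC25A -1.07, both called, and the CDC6 difference was 0.18 ± 0.09 and not called (edgeR adjusted p = 0.111). RRM2 fell with Ser-tRNA_Arg(CCG) and rose with Arg-tRNA_Gln(CUG), a difference of -2.45 ± 0.08, where 44.6% of all genes differed between these 2 comparisons. The helicase genes MCM4, CDC45 and GINS2 fell with Ser-tRNA_Arg(CCG) and rose with Arg-tRNA_Trp(CCA), and 45.3% of all genes differed between those. Between Arg-tRNA_Gln(CUG) and Arg-tRNA_His(GUG), 1 of 45 members differed, against 0.811% of all genes.

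**Figure D5:**
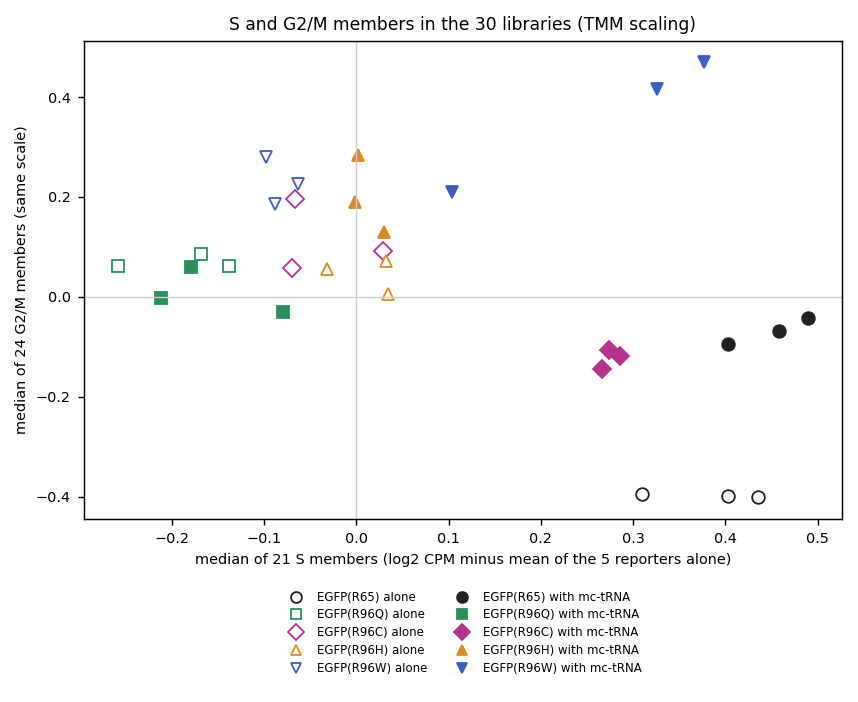
Median log2 level of the 21 S members against that of the 24 G2/M members in each of the 30 libraries, each as log2 CPM minus the mean of the 5 reporters alone (open points, reporter alone; filled points, with mc-tRNA). EGFP(R65) alone has S medians of 0.31 to 0.44 and G2/M medians of -0.40 to -0.39, and with Ser-tRNA_Arg(CCG) the G2/M medians are -0.09 to -0.04.

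The reporters without an mc-tRNA already differed in these genes. Against the mean of the 4 R96 reporters, EGFP(R65) alone had 17 S members higher and 3 lower (median 0.47) and 3 G2/M members higher and 18 lower (median -0.49), where 69% of all genes were called (33.6% higher and 35.4% lower, median -0.05). With library totals these counts were the same. The largest S differences were CCNE2 (1.22 ± 0.07, with the overlap with INTS8 given above), CDC6 (1.14 ± 0.06) and CCNE1 (1.04 ± 0.06). The largest G2/M differences were KIF20A (-1.64 ± 0.07), CDC20 (-1.41 ± 0.09) and UBE2C (-1.34 ± 0.05). CDC20 was at 86.8, 89.7 and 78.5 CPM with EGFP(R65), and at 225.0, 206.3 and 212.9 CPM with EGFP(R96W). Its level with Ser-tRNA_Arg(CCG), 189 to 196 CPM, lay above that of EGFP(R96H) alone (175.6, 173.7 and 147.9 CPM) and below those of the other R96 reporters alone, which spanned 206 to 313 CPM. Reporter and preparation cannot be told apart here, since the ERCC counts follow the same split. Among the 4 R96 reporters alone, 14 of 21 S and 21 of 24 G2/M members differed by F-test, against 54.7% of all genes.

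Over the 10 groups, mean levels ran from 16.1 to 835 CPM, and the lowest sum of counts in the 3 libraries of a group was 1806. Per kilobase of exon, reporter-alone levels were lowest for CCNE2 (5.86 CPM per kb) and highest for PCNA (164 CPM per kb). RRM2 varied most between group means (4.70-fold), then CENPE, SLBP, CDC6 and KIF20A, and RRM1, the large subunit of the same reductase, least (1.31-fold). In all, 41 members were called in at least 1 comparison and 13 in both directions. The matching counts over all genes were not made, so neither number is read as a trait of the members. Of all genes, 57.3%, 60.7% and 42.5% were called with Ser-tRNA_Arg(CCG), Arg-tRNA_Cys(GCA) and Arg-tRNA_Trp(CCA), respectively. UHRF1, a partner of the maintenance DNA methyltransferase, the spindle motor KIF11 and the kinetochore proteins CENPE and CENPF were called in none. CENPE and CENPF varied within groups: with EGFP(R96C) CENPE was at 33.9, 28.7 and 71.8 CPM and with Arg-tRNA_Cys(GCA) at 71.7, 52.3 and 21.6 CPM, and CENPF at 146.5, 126.2 and 197.6 and 240.4, 222.4 and 63.8 CPM, so the groups overlapped (0.11 ± 0.35 and 0.16 ± 0.30 with TMM, not called). The signs of both changed when 1 library was left out: CENPE stood at -0.32 without mc-tRNA replicate 1, -0.17 without EGFP(R96C) replicate 2 and -0.06 without replicate 1. CENPF stood at -0.17 without mc-tRNA replicate 1, -0.08 without replicate 2 and -0.02 without EGFP(R96C) replicate 2, and without mc-tRNA replicate 3 it was called at 0.52.

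A wider list of 102 other cell cycle genes gave the setting of these changes. With Ser-tRNA_Arg(CCG) 33 rose and 35 fell, where 26.6% of all genes rose and 30.7% fell. By class, 5 of 31 other replication genes rose and 21 fell while 15 of 40 other mitosis genes rose and 8 fell. The largest rises were ASF1B, a histone chaperone (1.16 ± 0.08), E2F3 (1.09 ± 0.07) and CDKN2D, an inhibitor of CDK4 and CDK6 (1.05 ± 0.11). The largest falls were RBL2, the pocket protein p130 (1.73 ± 0.08), the kinetochore gene SPC25 (1.51 ± 0.08) and the polymerase subunit POLD3 (1.47 ± 0.07). Cyclin D1 (CCND1) rose by 0.54, FOXM1 by 0.43 and MYBL2 (B-MYB) by 0.31, and CDKN1A (p21) was at 0.18 ± 0.08 (edgeR adjusted p = 0.0573; called without EGFP(R65) replicate 2 or mc-tRNA replicate 3, at 0.23 in both).

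With Arg-tRNA_Cys(GCA) 38 of the 102 rose and 38 fell with TMM. With library totals 13 rose and 72 fell, where 14.1% of all genes rose and 55.6% fell. The values that follow are with TMM, where 30.2% of all genes rose and 30.5% fell. By class, 12 of 31 other replication genes rose and 11 fell, with a median of 0.05 against 0.20 for the S members. Of 40 other mitosis genes 12 rose and 19 fell, with a median of -0.19 against -0.26 for the G2/M members. CCND2 (1.75 ± 0.07), the kinesin KIF18A (1.42 ± 0.19) and LIN54, the CHR-binding subunit of MuvB (1.31 ± 0.09), rose most, and CCND1 fell by 1.64 ± 0.10, separase (ESPL1) by 1.42 ± 0.07 and POLE2 by 1.06 ± 0.08. CDKN1A rose by 0.28 ± 0.08 and MYBL2 by 0.22 ± 0.07 with TMM, whereas with library totals they fell by 0.27 and 0.32, and FOXM1 was at 0.14 ± 0.07 with TMM and fell by 0.40 with library totals. CDKN1A was not called without EGFP(R96C) replicate 3 (0.19) or mc-tRNA replicate 1 (0.17), and MYBL2 was not called without EGFP(R96C) replicate 2 or 3 or mc-tRNA replicate 1 or 3 (0.18 to 0.19).

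With Arg-tRNA_Trp(CCA) 36 rose and 22 fell with TMM, against 20.7% and 21.7% of all genes. With library totals 26 rose and 37 fell, against 14.3% and 31.3%. By class and with TMM, 14 of 31 other replication genes rose and 8 fell (median 0.03, against 0.31 for the S members). Of 40 other mitosis genes 13 rose and 7 fell (median 0.05, against 0.13 for the G2/M members). The TMM rises were led by the flap endonuclease FEN1 (0.97 ± 0.08), E2F4 (0.82 ± 0.07) and the sororin gene CDCA5 (0.80 ± 0.07), and the falls by the condensin subunit NCAPH (0.65 ± 0.06), the primase PRIM1 (0.53 ± 0.07) and DNA ligase LIG1 (0.49 ± 0.05). FOXM1 rose by 0.53. CCND1 (0.21 ± 0.09) was called without EGFP(R96W) replicate 1 (0.29) or mc-tRNA replicate 1 (0.31), and MYBL2 (0.15 ± 0.07) without mc-tRNA replicate 3 (0.27). With Arg-tRNA_His(GUG) 5 rose and 1 fell, against 1.56% and 0.95% of all genes. Among them were CDKN2D (0.45 ± 0.11), CCND1 (0.36 ± 0.09), the licensing inhibitor GMNN (0.36 ± 0.07) and LIG1 (a fall of 0.20 ± 0.05). Of these 4, GMNN was called in every fit that left out 1 library, and the other calls were lost without mc-tRNA replicate 1 or 2 or EGFP(R96H) replicate 3 (CDKN2D 0.39 to 0.43, CCND1 0.31 to 0.38, LIG1 -0.20 to -0.16), without EGFP(R96H) replicate 2 for CCND1 (0.33) and LIG1 (-0.21), and without replicate 1 for CDKN2D (0.41). With Arg-tRNA_Gln(CUG) 0 of the 102 were called by edgeR, against 0.551% of all genes. At an unadjusted p under 0.05, 7 were higher and 3 lower, and DESeq2 called 1 rise and 1 fall.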

How the data were processed

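The authors deposited raw read counts per gene for 30 libraries, in 1 table per library with 58278 genes and 92 spike-in RNAs. The submitters' processing notes name STAR, SAMtools, featureCounts and hg38; no versions, annotation or strand setting were found (not given in the sources used here). Per the labels' protocols, library preparation was strand-specific on polyA RNA, with 3 independent replicates per group. Groups were taken from the labels.

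From the deposited counts, genes were filtered with filterByExpr, scaled by TMM, and fitted with edgeR 4.0.16 in R 4.3.3 (robust quasi-likelihood, 10 group means, 20 residual degrees of freedom, biological coefficient of variation 8.24%). CPM are TMM scaled, except those of the marker lists, which are scaled to library totals unless said otherwise. The spike-in rows were left out of library sizes and tests. With 3 libraries a group, no sample was tested as an outlier. Replicates of a group differed by more than sampling noise (chi-square per degree of freedom 2.11 to 43.2 over 30 pairs), and none was pooled. Alternatives were other scalings, no filter, DESeq2 1.42.0, a replicate block, fewer groups in the fit and leaving out each library. The test was also run on simulated data in which few genes changed, in a single group. Far more genes were called with Ser-tRNA_Arg(CCG), Arg-tRNA_Cys(GCA) and Arg-tRNA_Trp(CCA), so that run does not check the scaling there.

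The 45 members, the 102 other genes and the marker lists were chosen with earlier results of these data known. Named genes were the 3 largest called rises and falls of each phase and of the wider list per comparison, 13 landmark members where their change was largest, and CDKN1A, CCND1, FOXM1 and MYBL2; other members were named after their values were seen, as were the motifs, promoters, overlapping genes and scaling checks. Protein sequences and a genome were not used here.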

Additional observations from a re-analysis of the deposited data

Results flagged for a closer look

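Members whose change was called in opposite directions with 2 mc-tRNAs are listed here with the difference between the 2 changes (edgeR, log2, TMM scaling). For each of the 13 members called in both directions, the opposite pair with the largest called difference was kept. Its edgeR adjusted p ran from 6.5e-22 for RRM2 to 0.000952 for CDC25C. The members were picked for opposite calls in the same fit, so a called difference was nearly fixed in advance and adds no support.

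Among S members, RRM2 rose with Arg-tRNA_Gln(CUG) and fell with Ser-tRNA_Arg(CCG), a difference of 2.45. The replication fork genes GINS2 (1.27), MCM4 (0.76) and CDC45 (0.73) rose with Arg-tRNA_Trp(CCA) and fell with Ser-tRNA_Arg(CCG).

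Among G2/M members, BIRC5 (1.15), AURKA (1.01), AURKB (0.98), PLK1 (0.76), BUB1 (0.75) and CDC25C (0.47) rose with Ser-tRNA_Arg(CCG) and fell with Arg-tRNA_Cys(GCA). BUB1B (0.82) and CCNB2 (0.40) rose with Arg-tRNA_Trp(CCA) and fell with Arg-tRNA_Cys(GCA), and TOP2A (0.89) rose with Ser-tRNA_Arg(CCG) and fell with Arg-tRNA_Trp(CCA).

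Outside the gene counts, up to 106 counts per library fell on ERCC spike-in RNA in the libraries with an R96 reporter, and 0 in those with EGFP(R65). Within each R96 reporter these counts were lower with the mc-tRNA than without it.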

How the results depend on the processing

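Scaling mattered most. With library totals in place of TMM, Arg-tRNA_Cys(GCA) had 3 members rising and 32 falling, with medians of -0.34 (S) and -0.80 (G2/M). There 13 S and 6 G2/M members changed sign, of which 10 and 2 were called rises with TMM. Among the genes named for that comparison, CCNE1 (-0.067), MCM6 (-0.094), MCM7 (-0.15), RRM1 (-0.35), TTK (-0.17), UBE2C (-0.29), CDKN1A (-0.27), FOXM1 (-0.40), MYBL2 (-0.32), CENPE (-0.45) and CENPF (-0.39) changed sign. Arg-tRNA_Trp(CCA) had 10 falling, with medians of 0.18 and -0.0058. The Ser-tRNA_Arg(CCG) G2/M median was 0.18 with library totals, 0.25 with RLE factors, 0.25 with DESeq2 and 0.24 with its 6 libraries alone.

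With no filter on low counts, Arg-tRNA_Gln(CUG) had 0 rising and 1 falling, Arg-tRNA_His(GUG) 2 rising, and Arg-tRNA_Cys(GCA) medians of 0.12 and -0.34. Without the EGFP(R65) libraries 0 members rose with Arg-tRNA_Gln(CUG) and 1 with Arg-tRNA_His(GUG), and with the 6 libraries alone 0 and 17. The cause was not tested.

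Leaving out 1 library at a time gave 19 to 21 rises, an S median of -0.00045 to 0.11 and a G2/M median of 0.19 to 0.25 with Ser-tRNA_Arg(CCG). It gave 0 to 1 rises with Arg-tRNA_Gln(CUG), where the S median was -0.0097 to 0.069 and CCND1 ranged from -0.040 to 0.12, and 0 to 4 with Arg-tRNA_His(GUG). With Arg-tRNA_Cys(GCA) 13 to 17 rose and 16 to 19 fell, the G2/M median was -0.33 to -0.26, CENPE -0.32 to 0.63 and CENPF -0.17 to 0.52. With Arg-tRNA_Trp(CCA) 20 to 26 rose and 4 to 6 fell.

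Same-numbered replicates did not deviate together in every pair (correlations of -0.077 to 0.14), and 3, 4, 1, 4 and 6 of 6 libraries correlated best with their own number in the order of comparisons above (Ser, Gln, Cys, His, Trp). With the replicate number as a block, 7 members rose with Arg-tRNA_His(GUG) in place of 4. CDKN1A (0.18) and RRM1 (-0.12) with Ser-tRNA_Arg(CCG) and FOXM1 with Arg-tRNA_Cys(GCA) (0.15) were then called. No other count of members moved by over 1.5 times.

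Counting error was small, since each member had at least 1806 counts per group.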
